A study of Mus musculus with 6 samples.

Results

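Kruppel-like factors (KLFs) are transcription factors that bind DNA through zinc fingers at the end of the protein. The genes described here are Klf2, Klf3, Klf4, Klf5, Klf6, Klf7, Klf9, Klf10, Klf12 and Klf13, which make 10 of the 16399 genes measured. They were found by symbol in the platform table, among probe sets with a single gene symbol only. This gives them 38 of the 45037 probe sets that are not controls. In this family some members activate and others repress transcription, and several compete for the same CACCC and GC-rich sites. Klf4 and Klf5 are known from stratified epithelia, where Klf5 marks dividing basal cells and Klf4 the cells that leave them. Klf7 is known from olfactory sensory neurons, whose axon growth depends on it in mice.

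The cells came from the olfactory epithelium of CD1 mice, and no allele or agent differed between groups. Each of 3 litters, taken at postnatal days 21, 22 and 24, gave a sort of cells that bound an antibody against ICAM1 (CD54) and a sort of cells that did not. Each sort was hybridised to 1 array, which makes 3 ICAM1-positive and 3 ICAM1-negative arrays. Both sorts went through dissociation and flow cytometry, and litter and age cannot be told apart. ICAM1 is carried by horizontal basal cells, the quiescent stem cells of this epithelium, but also by blood and vessel cells. The question of the comparison is how transcripts differ between cells with and without it.

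Median intensity per array lay between 87.7 and 102.4, and log2 intensities correlated at 0.934 to 0.944 within a sort and at 0.762 to 0.794 between sorts. Icam1 read 13.0, 16.1 and 33.2 in ICAM1-negative litters 1, 2 and 3 and 7246.5, 6817.2 and 6857.1 in ICAM1-positive ones. This follows the sample titles, while the description field of each sample gives the reverse. All 10 horizontal basal cell markers were higher in ICAM1-positive cells, and their summed intensity went from between 1728 and 2849 to between 100306 and 106616. Icam1, on which the cells were sorted, is 1 of the 10 and part of the sum, so its rise was fixed by the sort. The count was 9 without litter 1 or 3 and without ICAM1-positive array 1 or 3. All 12 macrophage markers were higher as well, from a sum of 1150 to 1383 to one of 18395 to 23436. Of 8 Bowman gland markers 5 were higher and 0 lower, with a median log2 difference of 2.24, and with litter as a block 1, the odorant-binding protein gene Obp2a, was lower (limma adjusted p = 0.0473). Their sum went from between 3375 and 4384 to between 21220 and 23909. Of 7 sustentacular cell markers 3 were higher and 0 lower, where 20.6% of all genes measured were higher, 20.8% lower and 41.4% either. The median log2 difference of the 7 was -0.29. The 3 were Hes1 (4.60 ± 0.17) and Ermn (2.83 ± 0.19), and Notch2, which went from 319.2 ± 99.9 to 2479 ± 306 (SD, n = 3). The other 4 did not pass, and their estimates were all negative, from -0.84 to -0.29. The part of these cell types in the KLF rises was not tested. All 8 immature and all 8 mature neuron markers that were measured were lower. On bulk arrays, fewer cells of a type and less RNA per cell cannot be told apart.

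The promoter sequences below come from the RefSeq table of build GRCm38.p6, which matched 8 of the 10 members. Shown are the 250 bases before the start of 4 genes that rose in ICAM1-positive cells and of Klf13, which did not pass the test. They are shown because CACCC and GC boxes are the sites that KLF proteins themselves bind. Each sequence reads 5′ to 3′ on the strand of its gene. Capitals mark CACCC and GGGCGG on either strand, some of which overlap, and in Klf2 also a match to the MEF2 consensus.
Klf2: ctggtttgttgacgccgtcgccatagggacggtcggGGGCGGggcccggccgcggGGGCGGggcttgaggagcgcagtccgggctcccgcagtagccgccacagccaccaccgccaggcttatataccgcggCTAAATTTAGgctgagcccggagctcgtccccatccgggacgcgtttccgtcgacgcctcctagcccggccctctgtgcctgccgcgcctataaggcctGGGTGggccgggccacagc
Klf4: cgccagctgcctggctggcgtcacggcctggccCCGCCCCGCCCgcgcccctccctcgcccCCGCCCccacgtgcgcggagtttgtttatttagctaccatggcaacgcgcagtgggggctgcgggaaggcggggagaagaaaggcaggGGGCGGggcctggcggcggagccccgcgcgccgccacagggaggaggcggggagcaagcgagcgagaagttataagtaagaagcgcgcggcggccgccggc
Klf6: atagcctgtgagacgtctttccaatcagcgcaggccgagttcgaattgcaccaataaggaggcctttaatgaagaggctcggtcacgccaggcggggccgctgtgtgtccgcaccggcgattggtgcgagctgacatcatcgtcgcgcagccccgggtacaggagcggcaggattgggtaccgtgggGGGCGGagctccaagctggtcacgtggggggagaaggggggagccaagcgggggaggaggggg
Klf9: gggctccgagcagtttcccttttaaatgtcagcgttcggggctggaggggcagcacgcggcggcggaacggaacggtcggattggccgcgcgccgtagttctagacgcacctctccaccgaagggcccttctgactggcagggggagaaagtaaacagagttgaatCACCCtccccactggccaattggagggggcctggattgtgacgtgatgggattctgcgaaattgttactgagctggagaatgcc
Klf13: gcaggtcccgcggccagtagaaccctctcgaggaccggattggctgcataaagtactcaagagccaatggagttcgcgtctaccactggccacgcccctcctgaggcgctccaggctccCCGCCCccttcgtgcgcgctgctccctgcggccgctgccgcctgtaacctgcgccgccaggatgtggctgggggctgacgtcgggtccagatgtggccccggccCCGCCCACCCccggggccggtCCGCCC

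The windows lie at chr8:72318812-72319061 (plus strand) for Klf2, chr4:55532476-55532725 (minus) for Klf4, chr13:5861239-5861488 (plus) for Klf6, chr19:23140976-23141225 (plus) for Klf9 and chr7:63938916-63939165 (minus) for Klf13. CACCC or GGGCGG was found in all 8 member windows and in 64.7% of the 32851 windows of the same length in the table. CACCC alone was in 52% and GGGCGG in 32.7% of them. Klf4 held 4 GGGCGG matches, Klf6 held 1, and Klf2 held 2 with 1 CACCC. Klf9 held 1 CACCC, and Klf13 held 3 GGGCGG and 1 CACCC. The member that rose and the member that did not pass thus both carried such letters. A MEF2 match, found in 2.92% of all windows, stood in the Klf2 window alone among the 8, beginning 118 bases before the start. Member windows were 48% to 78.4% G and C, against a median of 52.4% over all windows. A match describes letters in a window and does not show a bound site.

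Most of the 10 genes were higher in ICAM1-positive cells. Represented by its brightest probe set, a gene was higher in 7 cases (Klf2, Klf3, Klf4, Klf5, Klf6, Klf9 and Klf10), lower in 2 (Klf7 and Klf12) and did not pass in 1 (Klf13). Over all genes measured, 20.6% were higher, 20.8% lower and 41.4% either by the same test. The test was limma on log2 intensity with Benjamini-Hochberg adjustment over the whole array and a threshold of 0.05. Of the 38 probe sets, 36 passed the filter on low values, and 0 of the 36 passed it through 1 sort alone. Among the 36, 19 were higher, 6 lower and 11 did not pass, where 16.9% of all probe sets kept were higher, 18% lower and 34.9% either. These 19 and 6, out of the 36 kept, all differed by 2-fold or more. Of all probe sets kept, 13.9% were called higher and 14.2% lower with such a difference. They were 5366 of the 6528 called higher and 5495 of the 6984 called lower. In 9 genes all called probe sets pointed one way. The median log2 difference was 2.01 over the 10 genes, against -0.06 over all genes. Without litter 1 or without litter 3, 6 genes were higher and 1 lower, as Klf10 and Klf12 lost their calls. Over all probe sets the same omissions left 3764 and 3775 higher, down from 6528, and 3678 and 3915 lower, down from 6984.

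**Figure D1:**
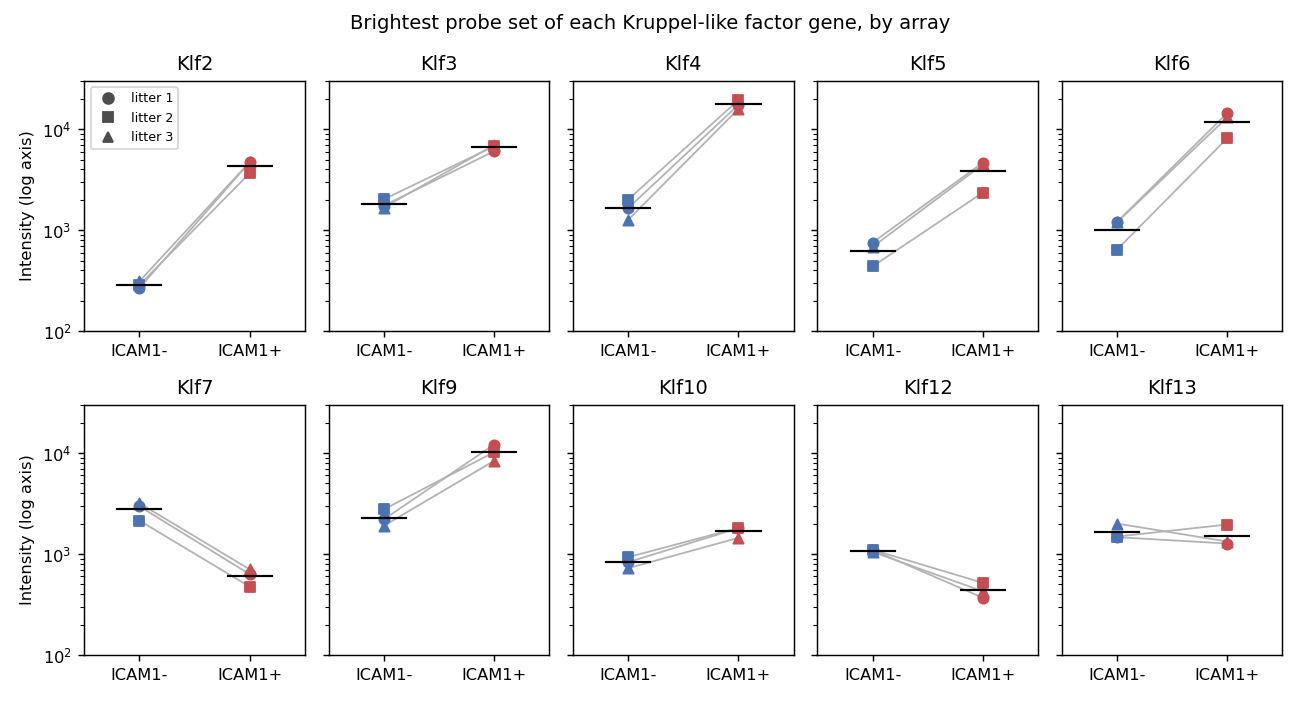
Intensity on a log axis of the brightest probe set of each of the 10 genes in ICAM1-negative (blue) and ICAM1-positive (red) cells. Symbols mark the 3 litters, grey lines join the sorts of a litter and black bars are group means. In 9 genes the sorts do not overlap, and in Klf13 they do. Of all probe sets kept, 23.6% were higher and 26.5% lower without overlap of the sorts.

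Klf4, which drives the barrier programme of skin and takes part in reprogramming to pluripotency, was higher by both of its probe sets. Its first probe set read 1655.6, 2012.4 and 1268.1 in ICAM1-negative litters 1, 2 and 3 and 17467.7, 19454.8 and 15915.7 in the ICAM1-positive sorts of the same litters. Every ICAM1-positive array was above every ICAM1-negative one, with group means of 1645 ± 372 and 17613 ± 1774 (SD, n = 3). The log2 difference was 3.44 ± 0.23 (SE; limma adjusted p = 0.000266), a fold of 10.9 with a 95% interval of 7.36 to 16. A second probe set rose from 358.8 ± 31.2 to 7121 ± 1455 (4.29 ± 0.22; limma adjusted p = 0.000164). The 95% intervals of these log2 differences overlapped.

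Klf5, a factor of dividing basal cells of gut and skin, rose by 2 of its 3 probe sets. Its brightest probe set read 755.5, 438.5 and 684.7 in ICAM1-negative and 4669.6, 2360.1 and 4477.1 in ICAM1-positive cells. Litter 2 was lowest in both sorts, and the sorts did not overlap. The log2 difference was 2.59 ± 0.36 (limma adjusted p = 0.00289), a fold of 6.01 with an interval of 3.26 to 11.1. A second probe set went from 370.7 ± 112 to 2532 ± 408 (SD, n = 3), a log2 difference of 2.80 ± 0.28. There, litter 2 was highest in both sorts, at 489.2 and 2947.2. The third, at 25.7 ± 14.9 and 27.3 ± 12.2, was below the array median on all 6 arrays, and its difference was 0.13 with an interval of -1.24 to 1.49.

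Klf2, best known from quiescent T cells and from endothelium under flow, had a single probe set. It read 267.6, 286.9 and 311.2 in ICAM1-negative and 4708.8, 3662.0 and 4728.5 in ICAM1-positive cells. The sorts were far apart, with means of 288.6 ± 21.8 and 4366 ± 610 (SD, n = 3). The log2 difference of 3.91 ± 0.19 (limma adjusted p = 0.000156) is a fold of 15.1, with an interval of 10.9 to 20.7, the largest point estimate among the brightest probe sets of the 10 genes. Of 10 listed endothelial markers 8 were measured, and Pecam1 and Tie1 were not. Of the 8, 0 were higher and 1, the diaphragm gene Plvap, was lower. All 8 lay below the array median on every ICAM1-positive array, and 6 did on every ICAM1-negative one. Without ICAM1-positive array 2, 1 endothelial marker passed as higher. The endothelial sum was 479.1 to 547 in ICAM1-negative and 422 to 482.1 in ICAM1-positive cells. Of 5 lymphocyte markers 1, the pan-leukocyte gene Ptprc, rose, 1, the B cell gene Ms4a1, fell, and the T cell gene Cd3e read 19.4 ± 2.03 and 17.4 ± 6.22. The fall of Ms4a1 was lost with low intensities raised to the median (limma adjusted p = 0.287) and without litter 2 (0.137) or litter 3 (0.0657). It was also lost without ICAM1-negative array 1 or 2 or ICAM1-positive array 3. Macrophage markers rose in the same arrays, 12 of 12. The part of endothelial cells, lymphocytes and macrophages in the Klf2 difference was not tested.

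Klf6, a tumour suppressor gene that is also induced quickly after injury, was higher by all 5 of its probe sets. The brightest read 1208.4, 642.2 and 1198.7 in ICAM1-negative and 14478.8, 8155.6 and 13121.0 in ICAM1-positive cells. Litter 2 was again lowest in both sorts, and the sorts did not overlap. The log2 difference was 3.57 ± 0.36 (limma adjusted p = 0.000863). Another, steadier probe set went from 842.3 ± 134 to 9609 ± 353 (SD, n = 3; 3.52 ± 0.19; limma adjusted p = 0.000176). Over the 5 probe sets the differences ran from 2.96 to 3.57 and their intervals overlapped. The brightest probe set and the one that rose by 3.29 ± 0.40 carry the suffixes _s and _x, which mark probe sets that can match several transcripts.

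Klf10, a gene induced early by TGF-beta, showed a small difference. It read 829.0, 929.2 and 722.2 in ICAM1-negative and 1798.4, 1811.1 and 1442.4 in ICAM1-positive cells. The sorts did not overlap, and the ICAM1-positive signal was higher in each of the 3 litters. The fitted difference was 1.03 ± 0.19 (limma adjusted p = 0.00925), a fold of 2.04 with an interval of 1.46 to 2.83. It did not pass without litter 1 (limma adjusted p = 0.103) or without litter 3 (0.0596). Over the other settings run its limma adjusted p ran from 0.000856 to 0.103.

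Klf9, a gene induced by glucocorticoids and thyroid hormone that restrains cell division and neurite growth, was measured by 7 probe sets. The brightest read 2198.3, 2756.7 and 1896.8 in ICAM1-negative and 12089.5, 10161.5 and 8344.2 in ICAM1-positive cells. The sorts did not overlap, and the difference within litters 1, 2 and 3 was 2.46, 1.88 and 2.14 on the log2 scale. The log2 difference was 2.16 ± 0.23 (limma adjusted p = 0.00114), a fold of 4.47 with an upper 95% bound of 6.66. The next probe sets rose by 2.06 ± 0.20 and 2.74 ± 0.22. The other 4 were dim, with ICAM1-negative signals below the array median on all 3 arrays. Of these, 1 rose at least 2.14-fold, taking the array median for the dimmer sort (limma adjusted p = 0.0482, and 0.014 to 0.174 over 17 other settings). It lost its call without litter 1 (0.174) or litter 3 (0.121) and without 5 of the 6 single arrays. A second, with the suffix _s, lost its call with low intensities raised (0.716) or without any litter (0.0596 to 0.0658), and 2 did not pass.

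Klf3, a repressor that recruits the co-repressor CtBP, rose by 3 of its 7 probe sets. The brightest read 1753.2, 2023.8 and 1674.6 in ICAM1-negative and 6056.7, 6765.4 and 6973.2 in ICAM1-positive cells. These values were close within each sort, at 1817 ± 183 and 6598 ± 481 (SD, n = 3). The log2 difference was 1.86 ± 0.17 (limma adjusted p = 0.000652), a fold of 3.64 with an interval of 2.72 to 4.87. The others that passed gave 2.09 ± 0.18 and 1.90 ± 0.19. The 4 that did not pass had positive differences of 0.61 to 1.33 with wide intervals. The brightest of these 4 read 399.7 ± 134 and 598.3 ± 42.6 (SD, n = 3), a difference of 0.64. Its interval of -0.08 to 1.36 lay below those of the 3 that passed, whose lowest bound was 1.43. Another of the 4, at 182.4 ± 43 and 378.3 ± 120, had sorts that did not overlap and missed narrowly (1.03 ± 0.33; limma adjusted p = 0.057). It passed under 7 of 17 other settings, where its limma adjusted p ran from 0.0217 to 0.289.

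**Figure D2:**
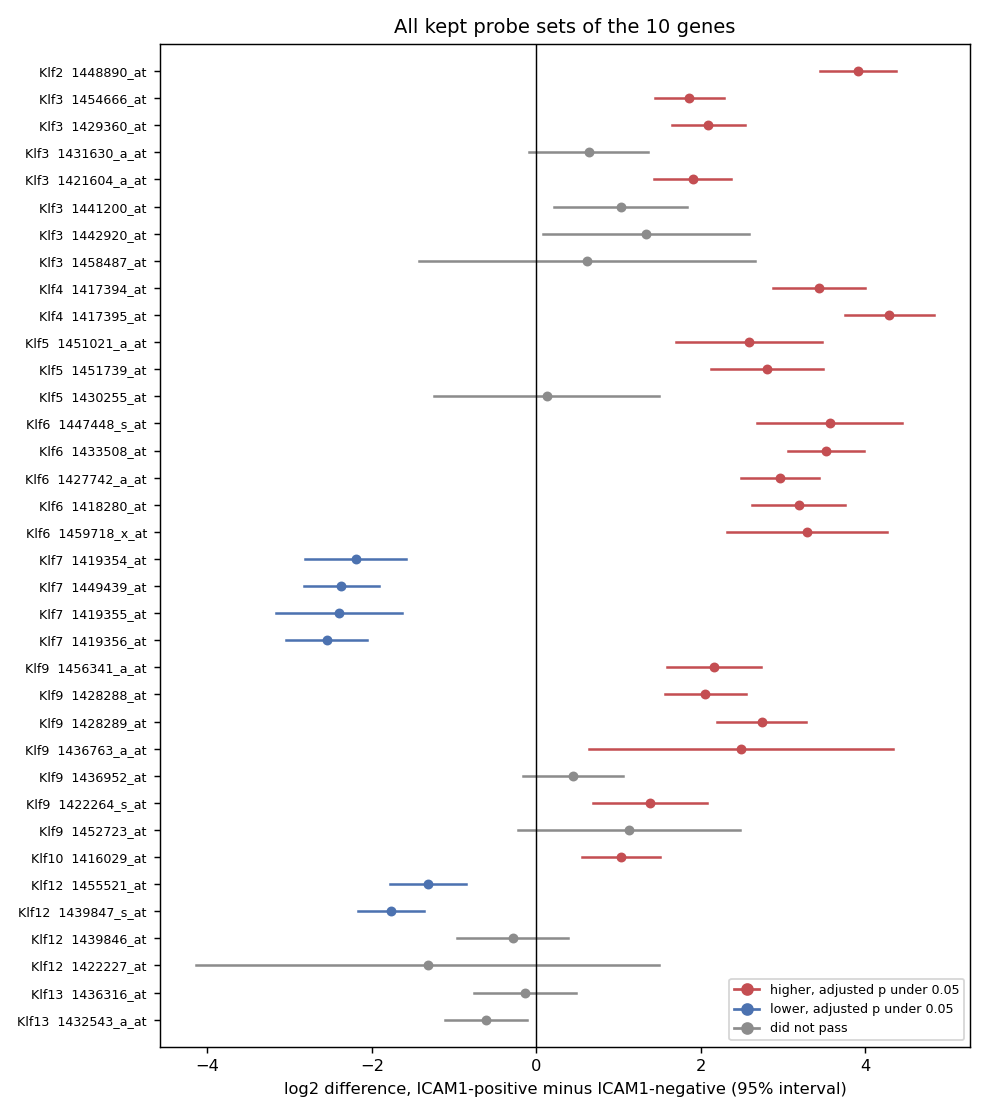
The log2 difference, ICAM1-positive minus ICAM1-negative, of each of the 36 probe sets kept, with its 95% interval from the limma fit. Of these, 19 lie to the right and passed (red), 6 lie to the left and passed (blue) and 11 did not pass (grey). All 5 of Klf6 and all 4 of Klf7 passed.

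Klf7 was lower in ICAM1-positive cells. All 4 of its probe sets fell, by 2.20 to 2.55 on the log2 scale. The first read 2961.3, 2138.8 and 3178.8 in ICAM1-negative and 629.2, 474.1 and 703.0 in ICAM1-positive cells. Litter 2 was lowest in both sorts, and the within-litter differences were -2.23, -2.17 and -2.18, closer together than the levels. The fitted difference was -2.20 ± 0.25 (limma adjusted p = 0.00136), a fold of 4.58 with an interval of 2.99 to 7.01. The other probe sets went from 2743 ± 185 to 533.5 ± 78.4, from 1834 ± 586 to 337.4 ± 57.4 and from 1172 ± 94.9 to 202.2 ± 35.8 (SD, n = 3). Their limma adjusted p-values were 0.000396, 0.00222 and 0.000417. Neuron markers fell in the same arrays, all 8 immature and all 8 mature ones, with medians of -4.05 and -3.68. The summed mature markers went from between 82447 and 94773 to between 5258 and 10605. Globose basal cell and precursor markers fell as well, 7 of 9 with 0 higher and a median of -1.72. Among them the neurogenic factor gene Neurod1 went from 7068 ± 493 to 444.8 ± 34.1 (SD, n = 3), and Neurog1 fell at least 10.6-fold. All 3 measured erythroid markers were lower, and 1 was without litter 3. The part of these cell types in the Klf7 difference was not tested. Of the mature markers 1, the olfactory marker protein gene Omp, lost its call without litter 1 (limma adjusted p = 0.0518).

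Klf12, like Klf3 a repressor that binds CtBP, was lower by its 2 brightest probe sets of 5. The first read 1094.8, 1097.9 and 1046.5 in ICAM1-negative and 368.4, 517.0 and 426.1 in ICAM1-positive cells, without overlap. The log2 difference was -1.32 ± 0.19 (limma adjusted p = 0.00328). It missed the threshold without litter 1 (0.0518) or without litter 3 (0.0521). Over the other settings run its limma adjusted p ran from 0.000181 to 0.0521. The second probe set went from 611.6 ± 35.2 to 179.6 ± 14 (SD, n = 3; -1.77 ± 0.16; limma adjusted p = 0.000662) and kept its call under every other setting run. It carries the suffix _s, which marks probe sets that can match several transcripts. Another, at 147.6 ± 12.5 and 124.8 ± 38.5, overlapped between sorts and gave -0.29 with an interval of -0.97 to 0.39. Of the rest, 1 was below the array median on all 6 arrays and 1 was not kept.

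Klf13, first described as a regulator of a chemokine gene in T cells, did not pass. Its brightest probe set read 1465.3, 1485.7 and 1998.1 in ICAM1-negative and 1266.6, 1954.3 and 1325.8 in ICAM1-positive cells. The ranges overlapped and the litters differed in direction, with -0.21, 0.40 and -0.59. The log2 difference of -0.14 had an interval of -0.75 to 0.48 (limma adjusted p = 0.722). A second probe set read 893.2, 1180.2 and 1185.8 against 662.2, 803.3 and 657.6, without overlap. Its difference of -0.61 ± 0.20 did not pass (limma adjusted p = 0.0621), and it passed under 4 of 17 other settings, with a range of 0.0158 to 0.318. The third probe set was not kept, at 11.2 ± 4.27 and 21.8 ± 15 (SD, n = 3).

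Within litters 1, 2 and 3, the Klf2 differences were 4.14, 3.67 and 3.93, those of Klf4 3.40, 3.27 and 3.65, and those of Klf6 3.58, 3.67 and 3.45. By point estimate of the brightest probe sets the rises were ordered Klf2, Klf6, Klf4, Klf5, Klf9, Klf3 and Klf10. The 95% intervals of all neighbours in that order overlapped. Other probe sets gave another order, as the second of Klf4 rose by 4.29. With averaged probe sets Klf4 (3.87) stood above Klf6 (3.31). Of the 36 probe sets, 22 were higher and 7 lower without overlap of the sorts. Over all probe sets kept, 23.6% and 26.5% were.

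**Figure D3:**
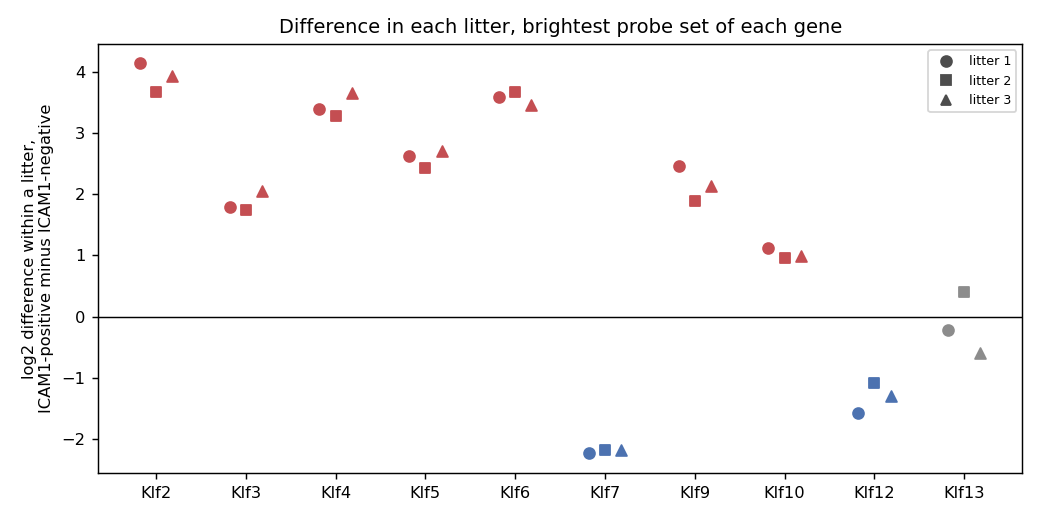
The log2 difference, ICAM1-positive minus ICAM1-negative, within each of the 3 litters (symbols) for the brightest probe set of each gene. Red and blue mark genes that passed as higher and lower, and grey marks Klf13. The 3 litters agree in sign for 9 genes, and for Klf13 they are -0.21, 0.40 and -0.59.

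The rest of the KLF family and the related SP factors were fixed as a list of 17 genes, of which 12 were measured. Among them 4 were higher and 1 lower, with a median log2 difference of 0.03. Over all genes measured, 20.6% were higher, 20.8% lower and 41.4% either. Klf15, a gene of metabolic tissues that is induced by glucocorticoids, read 56.3, 85.5 and 118.3 in ICAM1-negative and 1537.7, 2004.0 and 2001.7 in ICAM1-positive cells. Its difference was 4.47 ± 0.31 (limma adjusted p = 0.000306), or 4.12 when values under the array median, as on 2 of the ICAM1-negative arrays, were set to it. Sp8, a factor of olfactory bulb interneurons and limb buds, rose from 810.9 ± 73.3 to 2158 ± 232 (SD, n = 3; 1.41 ± 0.18). Sp6, a factor of hair follicles and teeth, rose by 1.38 ± 0.18. Sp1, the broadly expressed GC box factor and named here after its values were seen, rose by 0.77 ± 0.20 (limma adjusted p = 0.0267), but not without litter 1 (0.174), 2 (0.0861) or 3 (0.0994). The erythroid factor Klf1 was lower at 106.4 ± 5.06 and 52.3 ± 11.3 (limma adjusted p = 0.0132). It lost the call with low intensities raised (0.462) and without litter 1 (0.0993) or 3 (0.0636). The 5 genes of this list that were not measured had no probe set of a single symbol past the filter.

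Genes that act on KLF genes from upstream were fixed as a list of 15. Of these 9 were higher and 2 lower, with a median of 0.97, beside 20.6% and 20.8% of all genes measured. The higher count was 7 without litter 1 or 3 and 8 without litter 2. The glucocorticoid receptor gene Nr3c1, which acts on Klf9, read 458.2, 467.2 and 425.0 in ICAM1-negative and 5551.8, 6119.1 and 5234.4 in ICAM1-positive cells (3.64 ± 0.16; limma adjusted p = 0.000143). Tgfbr2, a receptor gene of the TGF-beta signal that induces Klf10, rose by 4.92 ± 0.33, or 4.83 with low intensities raised, and the signal transducer gene Smad3 by 2.85 ± 0.18. Il6st, the shared receptor gene of the interleukin-6 family, rose by 2.61 ± 0.22. Tgfbr1, the partner receptor gene of Tgfbr2, fell by 0.76 ± 0.17, but not without litter 1 (limma adjusted p = 0.147) or 3 (0.127). The MEF2 genes, looked at after the match in the Klf2 window, split. Mef2c rose by 2.61 ± 0.18, or 2.47 with low intensities raised. Mef2a fell by 0.69 ± 0.18, but not without litter 1 (limma adjusted p = 0.181), 2 (0.118) or 3 (0.115), and Mef2d did not pass (-0.15; limma adjusted p = 0.65). The count of lower genes was 0 without litter 1 or litter 3, without ICAM1-negative array 1 and without ICAM1-positive array 1 or 3. It was 1 without litter 2 or array 2 of either sort.

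Immediate early genes, which cells switch on within minutes of a stimulus and also during tissue dissociation, were set beside the members because Klf2, Klf4, Klf6 and Klf10 are induced in the same way. Of 16 genes 14 were higher and 0 lower, with a median of 2.62, beside 20.6% and 20.8% of all genes measured. Without litter 1 or without litter 3, 11 were higher. This list shares a gene each with the list of upstream genes and that of glucocorticoid response genes. Ier3 rose by 4.54 ± 0.19, the RNA-binding gene Zfp36 by 4.23 ± 0.21, and the AP-1 subunit genes Fosl1 and Junb by 3.75 ± 0.37 and 3.71 ± 0.21. Fosl1 rose by 3.05 with low intensities raised. Fos itself read 15905 ± 1761 and 20353 ± 2268 (SD, n = 3) and did not pass (0.36; limma adjusted p = 0.198). The summed level of the list was 65888 to 74958 in ICAM1-negative and 225111 to 256529 in ICAM1-positive cells. These genes moved in the same arrays as Klf2, Klf4, Klf6 and Klf10, and their part in those differences was not tested.

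Glucocorticoid response genes were set beside Klf9. Of 9 genes 7 were higher and 1 lower, with a median of 1.49, beside 20.6% and 20.8% of all genes measured. Without litter 1 or without litter 3, 4 were higher. Tsc22d3, which encodes the leucine zipper protein GILZ, went from 342.3 ± 86.8 to 5385 ± 1678 (SD, n = 3; 3.96 ± 0.32; limma adjusted p = 0.000444). Errfi1, a feedback inhibitor of the EGF receptor, rose by 2.78 ± 0.18 and the kinase gene Sgk1 by 2.50 ± 0.26. Fkbp5, a chaperone gene that is a standard glucocorticoid target, went the other way, from 743.0, 799.9 and 851.4 to 188.4, 139.8 and 189.3. Its difference was -2.22 ± 0.20 (limma adjusted p = 0.000569), so the list did not move as a whole.

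Co-regulators and degradation factors of KLF proteins were called in 4 of 12 and 3 of 9 cases, beside 41.4% of all genes. Of 12 co-regulator genes 1 was higher and 3 lower, with a median of 0.13. The CoREST gene Rcor1 fell from 6932 ± 257 to 2644 ± 341 (SD, n = 3) and the deacetylase gene Hdac2 fell by 1.11 ± 0.16. The demethylase gene Kdm1a fell by 0.95 ± 0.18. The latter 2 lost their calls without litter 1 (limma adjusted p = 0.0615 and 0.0883) or 3 (0.0533 and 0.11), which left 1 lower. Sin3a, a scaffold bound by Klf9, Klf10 and Klf13, rose by 0.58 ± 0.17 (limma adjusted p = 0.0413) and lost this call with litter as a block (0.0619) and without any single litter or array. The count of higher co-regulators was 0 with no filter or median centring, 4 with low intensities raised and 5 with a trended prior. The CtBP genes, partners of Klf3 and Klf12, did not pass. Ctbp1 read 9096 ± 2097 and 7022 ± 1088 and Ctbp2 1106 ± 342 and 1879 ± 606 (SD, n = 3). Ctbp2 passed as higher with litter as a block (limma adjusted p = 0.0254). Of 9 turnover genes 2 were higher and 1 lower, and 0 and 0 were without litter 1 or 3. These were the ubiquitin ligase genes Smurf2 (1.01 ± 0.19), Fbxw7 (0.77 ± 0.17) and Btrc (-1.25 ± 0.17). The higher count was 1 without litter 2 and without ICAM1-positive array 1 or 3. With litter as a block 3 were higher and 2 lower, where the F-box gene Fbxo22 passed as lower (limma adjusted p = 0.0297). The higher count was 4 with a stricter filter, low intensities raised, a trended prior or averaged probe sets.

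**Figure D4:**
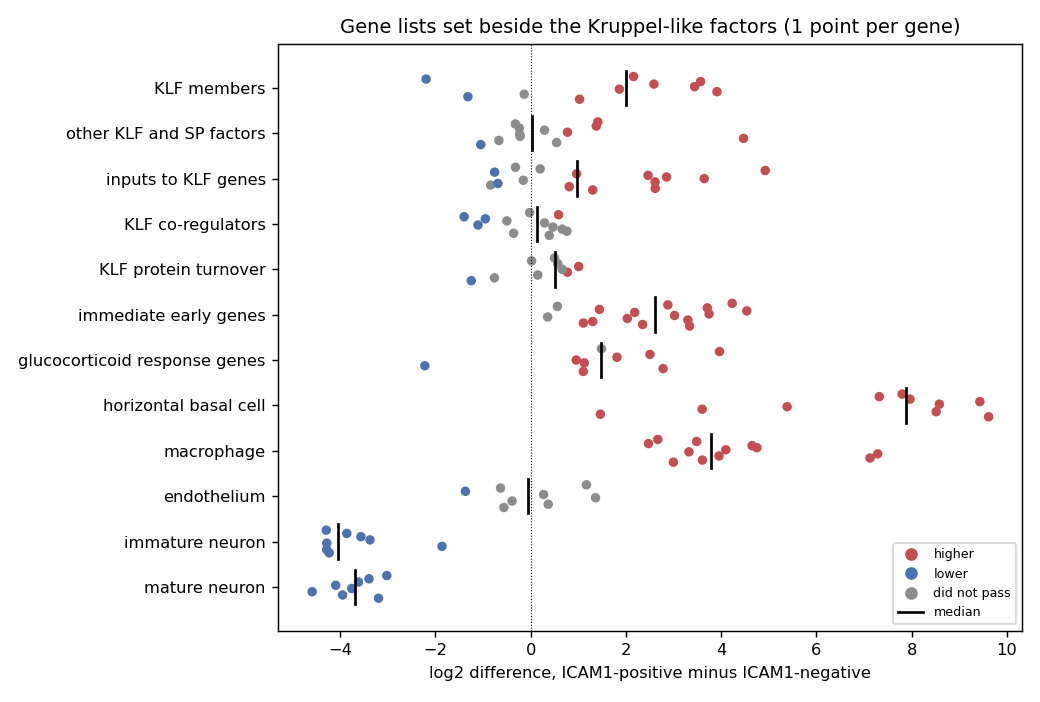
The log2 difference, ICAM1-positive minus ICAM1-negative, of each measured gene in 12 lists, by its brightest probe set, with the list median as a black bar. Red and blue points passed as higher and lower and grey points did not. The KLF genes have a median of 2.01, the immediate early genes one of 2.62 and the endothelial genes one of -0.06.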

How the data were processed

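Expression was measured on 6 Affymetrix arrays, 1 per sort and litter. The authors deposited linear intensities with equal trimmed means (500) on every array. GCRMA is named in the submitters' processing notes, but it returns log2 values, so the program behind these intensities is not given in the sources used here. Control probe sets (64) were left out. Intensities were taken to log2, and 38694 probe sets above 16 on at least 3 arrays were kept, with no detection call. Genes came from the platform table (34945 probe sets with 1 symbol, 932 with several, 9160 with none), each represented by its brightest kept probe set. Differences were fitted with limma 3.58.1 (R 4.3.3), ICAM1-positive minus ICAM1-negative, with Benjamini-Hochberg adjustment over all kept probe sets, and tested on simulated data. Errors are SD over 3 arrays or the SE of the fit. The number of arrays limits the precision. The numbers pair the samples by litter, per the series text, and deviations of same-litter arrays from their group means correlated at 0.127, 0.199 and 0.0812; the fit without the block is the main one. A fold is a bound against the array median where all arrays of the dimmer sort were under it. Named genes were all members and, in a list, up to 4 called genes with the largest differences in each direction; Fos, Ivl, Sp1, the MEF2 and CtBP genes, Cd3e, Omp, Obp2a and Fbxo22 were named after their values were seen. The members and lists were chosen with earlier results of these data known. Alternatives were the litter block, other filters, a pseudocount of 16, quantile or median scaling, low intensities raised, a trended prior, averaged probe sets and omission of litters or arrays.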

Additional observations from a re-analysis of the deposited data

How the results depend on the processing

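Of the 25 member probe sets that passed, 21 kept direction and call under every alternative that was run, and the other 4 belong to Klf9 (2), Klf10 and Klf12. Leaving out litters or single arrays gave 6 to 7 member genes higher and 1 to 2 lower, 16 to 19 member probe sets higher and 5 to 6 lower, and over all probe sets 3764 to 5854 higher and 3678 to 6013 lower. With litter as a block, 19 member probe sets were higher and 6 lower, as without it, and no call of a member changed; for the whole array it gave 6899 higher and 7476 lower. Calls of list genes that the block changed are given beside those genes where they are named. The scalings moved the median of all probe sets by under 0.1. Values that changed sign (13) came from 6 probe sets that had not passed. With intensities under the array median set to it, a dim probe set each of Klf3 and Klf5 and 2 of Klf9 read -0.000353. Leaving out a litter or an array gave values from -0.352 to 1.22 for that of Klf3, from -0.268 to 0.565 for that of Klf5, from -2.33 to 0.0244 for a dim one of Klf12 and from -0.401 to 0.0926 for the brightest of Klf13. Their causes were not tested. With no detection calls, low intensities have no order.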

Other observations

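Candidate target genes of KLF proteins, listed from general knowledge, were also counted. The shares over all genes, for the counts below, were 20.6% higher, 20.8% lower and 41.4% either. Of 13 measured genes listed for epithelia 6 were higher and 2 lower, with a median log2 difference of 0.72. The higher count was 5 with litter as a block, with low intensities raised and without litter 1 or 2, and 4 without litter 3. The keratin gene Krt19 rose from 105.4 ± 49.9 to 9521 ± 1921 (SD, n = 3; 6.58 ± 0.38, or 6.33 with low intensities raised), the leukocyte integrin gene Itgb2 by 2.70 ± 0.35 and the tight junction gene Cldn4 by 2.35 ± 0.35. All 12 macrophage markers rose in the same arrays as Itgb2, and their part in its rise was not tested. The keratin gene Krt4 lost its call with low intensities raised (limma adjusted p = 0.841) and with litter as a block (0.0539). The cornified envelope gene Lor fell by 0.95 ± 0.20, but not without litter 1 (limma adjusted p = 0.101), 2 (0.0768) or 3 (0.0721). The count of lower genes was 0 without litter 1 or 3 and 1 without litter 2 or ICAM1-positive array 3. The barrier gene Ivl read 22.9 ± 12.6 and 28.7 ± 5.77, below the array median on all 6 arrays. Of 8 measured candidate genes of Klf7 and Klf9 in neurons 4 were lower and 1 higher. The counts were 2 lower without litter 1 and 2 higher without litter 2 or ICAM1-negative array 2. The growth cone gene Gap43 fell by 4.28 ± 0.27 and the adhesion gene L1cam went from 2401 ± 471 to 299 ± 66.2 (SD, n = 3). The neurotrophin receptor gene Ntrk2 rose by 1.04 ± 0.17 but not without litter 1 (limma adjusted p = 0.0563) or 3 (0.065). Klf7 fell and Klf9 rose in the same arrays. Gap43 and Omp, both lower, are also in the neuron marker lists, in which every measured gene fell. The part of neurons in these differences was not tested. Of 7 measured candidate genes of Klf2, 6 lay below the array median on all ICAM1-negative arrays. By the test 2 were higher and 1 lower. The higher count was 0 without litter 1, 1 without litter 3 or ICAM1-positive array 1 or 3 or ICAM1-negative array 3, and 1 with low intensities raised. The integrin gene Itgb7 rose at least 2.98-fold, but not without litter 1 (limma adjusted p = 0.0611). The endothelial gene Nos3 was lower (-0.89) but not with litter as a block (0.055) or without litter 1 (0.177), 2 (0.106) or 3 (0.0625), nor without any single array other than ICAM1-positive array 3.

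For each member, the gene with the most similar profile over the 6 arrays was found by Pearson's r between log2 intensities of the brightest probe sets, as a description. For Klf2 it was the protease gene Ctss, which is also 1 of the 12 macrophage markers. The others were Ttc23 for Klf3, Ankrd6 for Klf4, Neurl3 for Klf5 and the co-chaperone gene Dnaja4 for Klf6. Further ones were the nucleotide synthesis gene Prps1 for Klf7, the receptor gene Lgr6 for Klf9, Pum3 for Klf10, Spata13 for Klf12 and Filip1 for Klf13 (r = 0.986). Profiles this close are common between 2 well separated groups. Between 1262 and 2253 of 16398 genes had an r above 0.95 with each member that passed, and 9 did with Klf13.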
